A study of Mus musculus with 9 samples.

Results

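Dedifferentiated mouse cardiac fibroblasts were compared with mouse embryonic stem (ES) cells, gene by gene, over 6 of the 9 arrays of the study: the 3 arrays titled as dedifferentiated cells and the 3 titled as C57 ES cells. All groups carry the strain label C57BL/6, and the study concerns a protein-based way of taking adult somatic cells back to a pluripotent state. The labels name neither the protein, the time of treatment, a clone or passage, nor the ES line. Total RNA was hybridised to Affymetrix Mouse Gene 1.0 ST arrays, 1 array per sample, and the deposited values are log2 expression values, so that a difference of 1 unit is a 2-fold change. The 3 arrays of untreated adult cardiac fibroblasts give a reference level beside each gene. They also entered the fit, and so the intervals and p-values, and the choice of 1 row per gene. After rows were reduced to 1 per gene symbol, 19938 genes were tested.

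Mouse ES cells keep a self-renewing pluripotent state through a network around Oct4 (Pou5f1), Sox2 and Nanog. Cells of the early embryo pass from a naive to a primed epiblast state, and Nodal, FGF, BMP and retinoic acid signals act on that passage and on the exit towards endoderm, mesoderm and ectoderm. Each of these signals also induces its own inhibitors, so that transcripts of antagonists are commonly read together with those of the ligands.

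The labels were first set against marker genes. The mean level of 10 ES cell markers lay between 10.24 and 10.30 on the dedifferentiated arrays and between 10.13 and 10.30 on the ES arrays, against 4.03 to 4.29 in fibroblasts. Array pairs correlated at 0.9931 to 0.9946 within dedifferentiated cells, 0.9875 to 0.9923 within ES cells and 0.9818 to 0.9863 between them. The median SD of a gene over 3 arrays was 0.0762 in dedifferentiated and 0.127 in ES cells, and only 12 genes of the former against 72 of the latter had an SD above 0.5. Nothing in the labels says whether samples of a group came from separate cultures. The p-values thus measure a spread over samples that may be technical only, and 3 arrays per group limit the precision. In such bulk RNA, fewer cells of a type and less RNA per cell cannot be told apart.

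Few genes differed by the rule used, and more of them were higher than lower in dedifferentiated cells. Calls required a limma adjusted p under 0.05 together with a difference of at least 1 log2 unit. By that rule 201 genes were higher and 109 lower in dedifferentiated cells, which is 1.55% of the genes tested (1.01% higher and 0.547% lower). These shares are the background for all counts of called list members below. Of the 310 called genes, 309 had non-overlapping arrays, as had 32.6% of all genes. Their sizes were moderate, with a median of 1.27 among the higher and -1.17 among the lower genes, and the difference reached 2 log2 units in 16 higher and 2 lower genes. Over all genes the median difference was -0.0015. At an unadjusted p under 0.05 with no limit on size, a far wider count used below beside the lists, 15.8% of all genes were higher and 14.7% lower. In a fit of every row of the table, 1.64% of the rows with 1 gene symbol, 4.69% of those with several and 1.64% of those with none were called.

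Called genes lay mostly above the dim range of the arrays. The 95th percentile of 1016 olfactory receptor genes, a family not expected in such cells, served as a dim reference at 4.17 in dedifferentiated and 4.14 in ES cells. In at least one of the 2 groups 13709 genes lay above it, and 2.26% of those were called. Every called gene was above it in at least one group and 297 were above it in both. In fibroblasts, 31 of the called genes did not reach the corresponding level of 4.16.

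**Figure D1:**
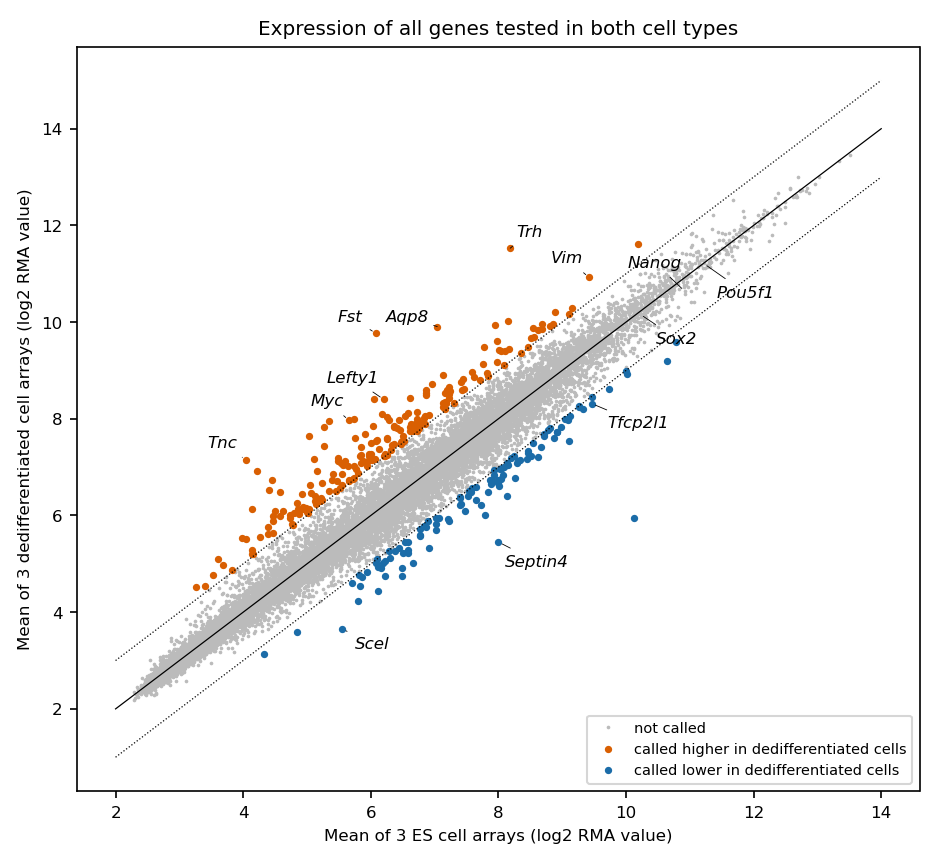
Mean log2 RMA value of each of the 19938 genes on the 3 ES cell arrays (horizontal) and the 3 dedifferentiated cell arrays (vertical), where the solid line marks equal values and the dotted lines a difference of 1 log2 unit. The 201 genes called higher lie above the upper dotted line and the 109 called lower lie below the lower one, while Pou5f1, Sox2 and Nanog sit close to the line of equal values.

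The 3 largest rises were in genes of secreted proteins, Fst, Trh and Tnc. Fst, follistatin, which binds and blocks activin, read 9.52, 9.91 and 9.87 on the dedifferentiated arrays and 5.79, 6.11 and 6.34 on the ES arrays. The lowest dedifferentiated array was thus above the highest ES array by several log2 units, and the difference was 3.69 (95% interval 3.38 to 3.99, 12.9-fold, adjusted p = 2.1e-07). The fibroblast mean of Fst was 8.99.

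Trh, which encodes the precursor of thyrotropin-releasing hormone, was the second largest rise. Its dedifferentiated arrays read 11.42, 11.61 and 11.55 and its ES arrays 8.25, 8.15 and 8.15. The values within each group were tight, and the difference of 3.34 (3.16 to 3.52) was 10.1-fold with an adjusted p of 5.5e-09. In fibroblasts Trh lay at 4.26, close to the dim reference.

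Tnc, the matrix glycoprotein tenascin C, read 7.24, 7.12 and 7.09 in dedifferentiated cells against 3.61, 4.38 and 4.13 in ES cells. The ES mean was not above the dim reference, so the difference of 3.11 (2.75 to 3.47, adjusted p = 1.1e-06) was measured from a level near the floor of the array. Fibroblasts had a Tnc level of 11.52.

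A motif search of the 250 bases before each gene start in the RefSeq promoter table (build GRCm38.p6) covered 141 of the higher and 90 of the lower genes. The octamer ATTTGCAT, the letters that POU factors such as Oct4 are known to bind, was searched on both strands. It was found before 6 of the 141 higher genes (4.26%: Egln3, Lgr4, Pim2, Tnc, Tspan8 and Zfp296) and 0 of the 90 lower genes, against 490 of all 27025 genes of the table (1.81%). The stretch before Tnc is shown because Tnc had the largest rise among these 6. It lies at chr4:64047099-64047156 on the minus strand, written 5′ to 3′ along the gene with the octamer, present on the opposite strand, in capitals.
Tnc: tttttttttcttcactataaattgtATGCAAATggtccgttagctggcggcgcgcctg
The match ends 108 bases before the start used, which is 1 of 2 starts listed for Tnc. It describes the letters of this window and no binding was measured.

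Cyp26a1, the enzyme that breaks down retinoic acid and a known retinoic acid target, read 7.86, 7.93 and 8.10 in dedifferentiated cells and 5.08, 5.39 and 5.58 in ES cells. All 3 dedifferentiated arrays were above all ES arrays, which the choice of the largest rises required. The difference was 2.61 (2.34 to 2.88, limma adjusted p = 5.6e-07), and fibroblasts were at 3.83. Among the genes with a promoter entry, a repeat known to be bound by the retinoic acid receptor, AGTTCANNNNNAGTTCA searched on both strands, was found before 7 of 27025 genes (0.0259%). Of the 141 higher genes 1 held it, Cyp26a1, and of the 90 lower genes 0. Its stretch is chr19:37697751-37697807 on the plus strand of GRCm38.p6, with the repeat, present on the opposite strand, in capitals.
Cyp26a1: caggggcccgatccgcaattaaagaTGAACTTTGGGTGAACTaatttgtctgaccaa
The match ends 15 bases before the gene start. Only 1 spelling of the repeat was searched, the one that Cyp26a1 holds, and the low share over all genes belongs to that spelling. The match is thus no test of a link to retinoic acid, and no binding was measured. Of 16 measured genes for retinoic acid synthesis, binding, reception and breakdown, Cyp26a1 was the single call. The receptor Rarg differed by 0.81 and the related enzyme Cyp26b1 by -0.07, neither called. The list's median was 0.23, with 8 members higher and 0 lower at an unadjusted p under 0.05 with no limit on size, where all genes gave 15.8% and 14.7%.

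Further large rises were in Aqp8, Thbd and Ptgs2. Aqp8, a water channel, read 9.64, 9.96 and 10.12 in dedifferentiated cells and 6.95, 7.04 and 7.13 in ES cells, a difference of 2.87 (2.61 to 3.12). Thbd, thrombomodulin, which restrains coagulation at the cell surface, read 7.61, 7.90 and 7.99 against 5.30, 5.11 and 5.41, a difference of 2.56. Ptgs2, the inducible cyclooxygenase, read 8.49, 8.42 and 8.34 against 5.81, 6.01 and 6.35, a difference of 2.36. For each of these the lowest dedifferentiated array was above the highest ES array, which the choice of the largest rises required. The fibroblast means were 4.65 for Aqp8, 8.78 for Thbd and 11.34 for Ptgs2.

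Rises of more than 2 log2 units were also found in Tspan8, a tetraspanin (2.70), Slc27a2, a fatty acid transporter and acyl-CoA synthetase (2.60), and Flrt2, an adhesion and guidance receptor (2.28). Slc34a2, a sodium-dependent phosphate transporter, differed by 2.26 and Gkn2, a gastrokine known from the stomach lining, by 2.12. The neighbouring Gkn1 was called too, at 1.06, but not without dedifferentiated replicate 3 (0.96) or ES replicate 3 (0.99). Solute carriers were counted after their values were seen. Of 364 measured Slc genes 11 were higher and 2 lower (3.57%, against 1.55% of all genes tested). Among the higher ones were the amino acid transporters Slc7a7 (1.80), Slc36a4 (1.40) and Slc7a3 (1.18) and the metal transporter Slc39a14 (1.45).

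**Figure D2:**
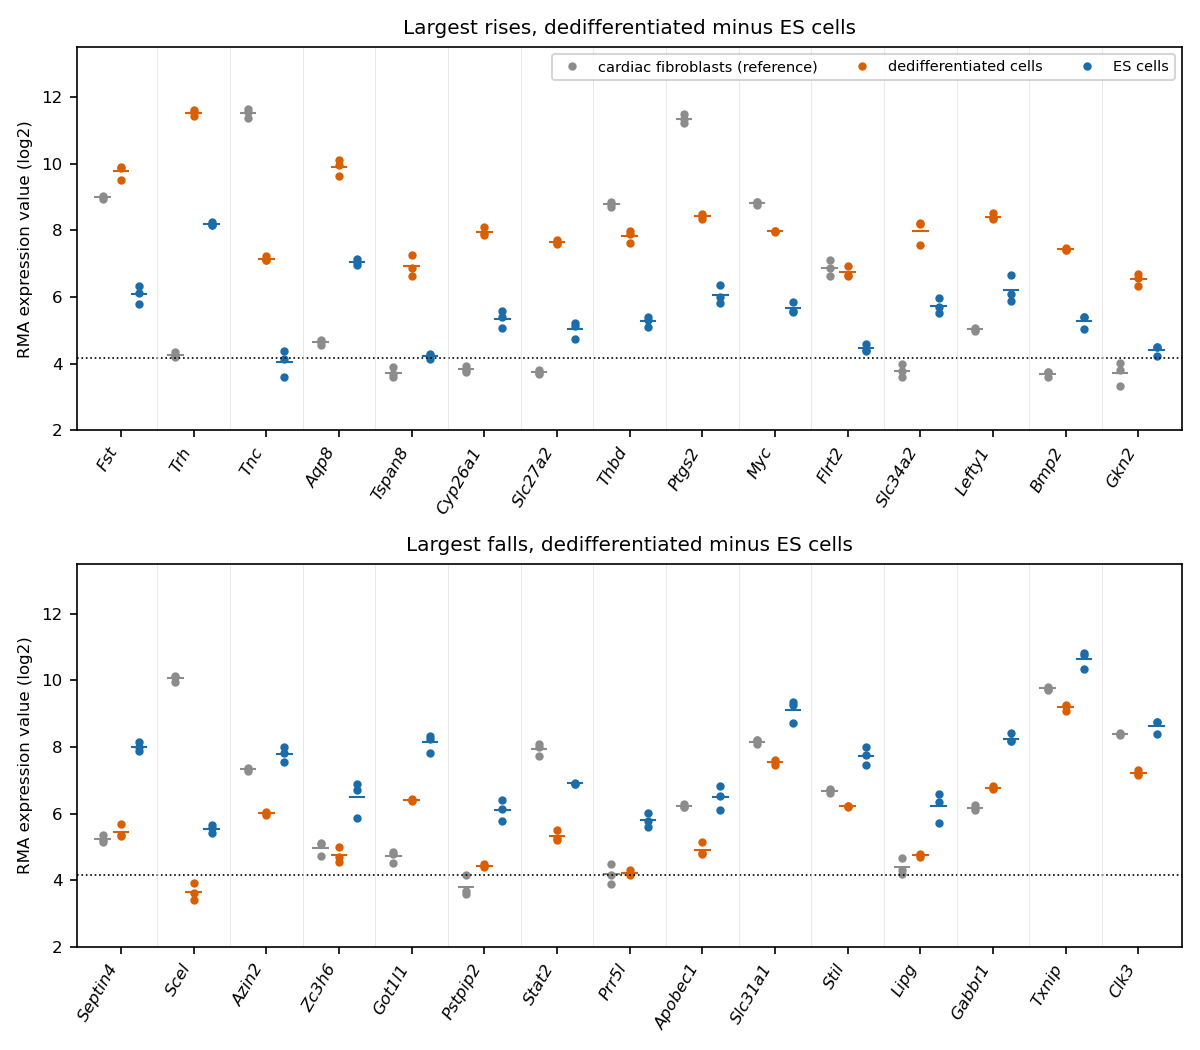
Log2 RMA value on each array for the 15 genes with the largest rises (top) and the 15 with the largest falls (bottom) in dedifferentiated cells against ES cells, among called genes with a full gene symbol. Only genes whose dedifferentiated and ES arrays do not overlap could be chosen. Points are single arrays (3 per group) and short lines are group means. The dotted line is the mean of the dim references of fibroblasts (4.16), dedifferentiated cells (4.17) and ES cells (4.14). Orange and blue points are therefore separate by choice for every gene shown. The grey fibroblast points lie above both, below both or between them depending on the gene.

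Secreted inhibitors of Nodal and activin were among the largest differences. Nodal and activin act through shared receptors and Smad2 and Smad3, and the pathway induces Lefty1 and Lefty2, secreted proteins that block Nodal. Of 24 measured members 6 were higher and 0 lower (median 0.23). At an unadjusted p under 0.05 with no limit on size, 12 were higher and 3 lower (15.8% and 14.7% of all genes).

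Lefty1 read 8.51, 8.36 and 8.34 in dedifferentiated cells and 6.66, 6.08 and 5.87 in ES cells. Lefty2 read 7.99, 8.15 and 8.16 against 6.45, 6.03 and 6.03. In both genes ES replicate 1 was the highest ES array and still lay more than 1 log2 unit below the lowest dedifferentiated array. The intervals of the differences were 1.85 to 2.55 for Lefty1 and 1.61 to 2.25 for Lefty2, and the fibroblast means were 5.03 and 4.14.

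Among the ligands, Gdf3, a Nodal-related factor of pluripotent cells, read 9.67, 9.71 and 9.70 against 8.46, 8.58 and 8.61 (difference 1.15, adjusted p = 4.8e-05). Inhba, the subunit that forms activin A, read 6.15, 6.15 and 6.16 against 5.01, 4.96 and 5.0 (difference 1.17, adjusted p = 1.9e-06). The fibroblast level of Inhba was 11.04, far from both. Nodal itself differed by 0.27 (0.08 to 0.46, adjusted p = 0.051) and Inhbb by 0.10, and neither was called. The co-receptor Tdgf1 differed by 0.21 (-0.00 to 0.43).

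Downstream, Foxh1, the DNA-binding partner of Smad2, read 7.08, 7.25 and 7.12 in dedifferentiated cells against 6.20, 6.10 and 5.74 in ES cells (difference 1.14, adjusted p = 9.7e-05). The receptor Acvr1b differed by -0.86 and the feedback gene Skil by 0.71, both short of the required size. Acvr1, a type I receptor of the same superfamily that mainly serves BMP ligands and was named after its value was seen, was higher by 1.18.

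Within the BMP pathway the ligand Bmp2 and the secreted antagonists Grem1 and Nog were higher. Bmp2 read 7.41, 7.48 and 7.40 in dedifferentiated cells and 5.03, 5.40 and 5.40 in ES cells, a difference of 2.16 (1.93 to 2.39, adjusted p = 6.6e-07), with fibroblasts at 3.70. Grem1, gremlin, an antagonist of BMP2 and BMP4, read 6.99, 6.77 and 7.02 against 4.87, 5.31 and 5.31, a difference of 1.76. Nog, noggin, another antagonist, differed by 1.05 and was short of the size without dedifferentiated replicate 3 (0.95) or ES replicate 1 (0.95). These were the 3 higher of 20 measured members, with 0 lower by the rule and a median of 0.09. With no limit on size, 8 were higher and 4 lower at an unadjusted p under 0.05 (15.8% and 14.7% of all genes). The ligands Bmp7 at -0.91 and Bmp4 at -0.61 were not called. The target genes were divided, with Id3 at 0.87 and Id2 at -0.64, not called.

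FGF signalling runs through the ERK kinases, and its negative feedback genes are transcribed when ERK is active. The feedback genes Spry4 and Dusp4 were higher in dedifferentiated cells, and Fos and Jun were lower. Spry4, a Sprouty inhibitor, read 8.90, 8.93 and 8.91 against 7.13, 6.95 and 7.32 in ES cells, a difference of 1.78 (1.54 to 2.02, adjusted p = 3.1e-06). Dusp4, an ERK phosphatase, read 8.49, 8.58 and 8.64 against 7.01, 7.32 and 7.40, a difference of 1.33. Phlda1, a growth factor-induced gene, differed by 1.31 and the ligand Fgf15 by 1.16. No dedifferentiated array of these genes overlapped an ES array.

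Of the 28 measured members 4 were higher and 2 lower, and the median was 0.44. Several other feedback genes were not called, with Spred1 at 0.79, Dusp6 at 0.77, Spry2 at 0.74 and Etv5 at 0.66. The ligand Fgf4 differed by -0.37, and the receptor Fgfr2 by 0.88. With no limit on size 15 members were higher and 4 lower at an unadjusted p under 0.05 (15.8% and 14.7% of all genes).

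Fos and Jun encode the partners of the AP-1 transcription factor and respond within minutes to growth factors and to handling. Fos read 6.66, 6.74 and 6.87 in dedifferentiated cells against 8.10, 8.05 and 7.98 in ES cells (difference -1.29, -1.56 to -1.02). Jun read 7.60, 7.58 and 7.63 against 8.96, 8.70 and 8.93 (difference -1.26). Every ES array exceeded every dedifferentiated array in both. Jun lies on chromosome 4, where 2.6% of genes were lower, against 0.422% on other chromosomes. Of the 7 measured members of the Fos and Jun family, counted after their values were seen, 3 were lower (the third was Fosb at -1.14) and 0 higher. The called share was 42.9%, against 1.55% of all genes tested. Fosl1 pointed the other way at 0.69, not called.

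The central pluripotency factors showed small differences. Pou5f1 read 11.17, 11.23 and 11.24 in dedifferentiated cells and 11.15, 11.32 and 11.18 in ES cells. The ranges overlapped, and the 95% interval was -0.55 to 0.54 in the 9-array fit and -0.17 to 0.17 with the fibroblast arrays left out. Sox2 read 10.15, 10.14 and 10.20 against 10.11, 10.27 and 10.27, also overlapping, with intervals of -0.33 to 0.23 from 9 arrays and -0.22 to 0.12 from 6. For Nanog the difference was -0.29, with a 9-array interval of -0.73 to 0.15 (adjusted p = 0.4) and a 6-array interval of -0.51 to -0.07 (adjusted p = 0.077), and every dedifferentiated array was below the ES arrays.

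Of 23 measured core pluripotency genes 2 were higher (Gdf3 and Zfp296, a zinc finger protein of ES cells, at 1.14) and 0 lower, with a median of 0.21. At an unadjusted p under 0.05 with no limit on size, 11 were higher and 2 lower (15.8% and 14.7% of all genes). Both counts come from the 9-array fit and depend on it. There the interval of Dppa5a was -1.09 to 0.20 and that of Tdgf1 -0.00 to 0.43. With the fibroblast arrays left out, they were -0.61 to -0.28 for Dppa5a and 0.06 to 0.36 for Tdgf1. Dppa2, a chromatin-associated protein of early embryonic cells, differed by 0.89 and Sall4 by 0.66, both short of the required size. Lin28a, which blocks let-7 maturation, read 9.09, 9.03 and 9.17 against 8.55, 8.55 and 8.58, a non-overlapping difference of 0.54 (0.37 to 0.70).

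By the rule 1 naive-state gene was lower and 0 were higher. Tfcp2l1, a naive-state factor downstream of LIF and Stat3, read 8.31, 8.31 and 8.34 in dedifferentiated cells against 9.24, 9.56 and 9.59 in ES cells, and was the single call of the 23 naive-state genes (median -0.15). With no limit on size, 5 were higher and 9 lower at an unadjusted p under 0.05 (15.8% and 14.7% of all genes). Klf4 read 8.08, 8.32 and 8.32 against 9.19, 8.90 and 9.0, without overlap, whereas Klf2 read 8.85, 9.13 and 9.15 against 8.75, 8.51 and 8.56. The differences of the relatives Klf2 (0.44) and Klf4 (-0.79) had opposite signs, and neither was called. Lifr, the LIF receptor, differed by 0.74, and the 5-methylcytosine oxidases Tet1 and Tet2 by -0.56 and -0.73.

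Among 18 primed epiblast genes 5 were higher and 0 lower, with a median of 0.26. Otx2, a homeobox factor of the primed state, read 8.88, 8.78 and 8.93 in dedifferentiated cells and 7.66, 7.60 and 7.57 in ES cells, a difference of 1.25 (0.91 to 1.59, adjusted p = 0.00024). Zic5, which neighbours and is related to Zic2, read 8.76, 8.50 and 8.54 against 7.08, 6.79 and 6.73, a difference of 1.73. Zic2 read 7.98, 7.77 and 7.82 against 6.35, 5.81 and 5.97. ES replicate 1 was the highest ES array for Zic2 and Zic5, and no arrays overlapped. With no limit on size, 8 of the 18 were higher and 0 lower at an unadjusted p under 0.05 (15.8% and 14.7% of all genes).

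Fgf5, the classic transcript of the primed epiblast, read 6.20, 6.28 and 5.65 against 5.66, 5.07 and 4.90. Dedifferentiated replicate 3 overlapped ES replicate 1, and the difference of 0.83 (0.40 to 1.26) was not called. Without dedifferentiated replicate 3 it was 1.03 and without ES replicate 1 it was 1.06, both past the rule. Lef1, a transcription factor of Wnt signalling, differed by 0.99 and passed the rule under some settings, among them leaving out ES replicate 1 (1.11) or dedifferentiated replicate 3 (1.06). Cdh2, N-cadherin, differed by 0.89 and Pou3f1 by 0.17, neither called. Of 26 measured Wnt genes, Lef1 included, 0 passed the rule in either direction, and 8 were higher and 3 lower at an unadjusted p under 0.05 by limma (15.8% and 14.7% of all genes).

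The de novo DNA methyltransferases Dnmt3a and Dnmt3b, counted among the primed epiblast genes too, were higher. Dnmt3a read 8.57, 8.49 and 8.56 in dedifferentiated cells against 6.90, 6.79 and 6.91 in ES cells (difference 1.68, 1.46 to 1.89). Dnmt3b read 9.55, 9.41 and 9.47 against 8.46 on all 3 ES arrays, and such equal values give no measure of precision. Its difference of 1.01 fell short on a repeated quantile normalization (0.96) or without dedifferentiated replicate 1 (0.98). Dnmt3l, their cofactor without catalytic activity, differed by -0.28 and was not called. Of 18 measured genes of DNA methylation and its removal, 2 were higher and 2 lower (22.2%, against 1.55% of all genes tested). The lower ones were Mbd4, a glycosylase that repairs deaminated CpG sites (-1.31), and Apobec1, a cytidine deaminase of RNA editing (-1.57).

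**Figure D3:**
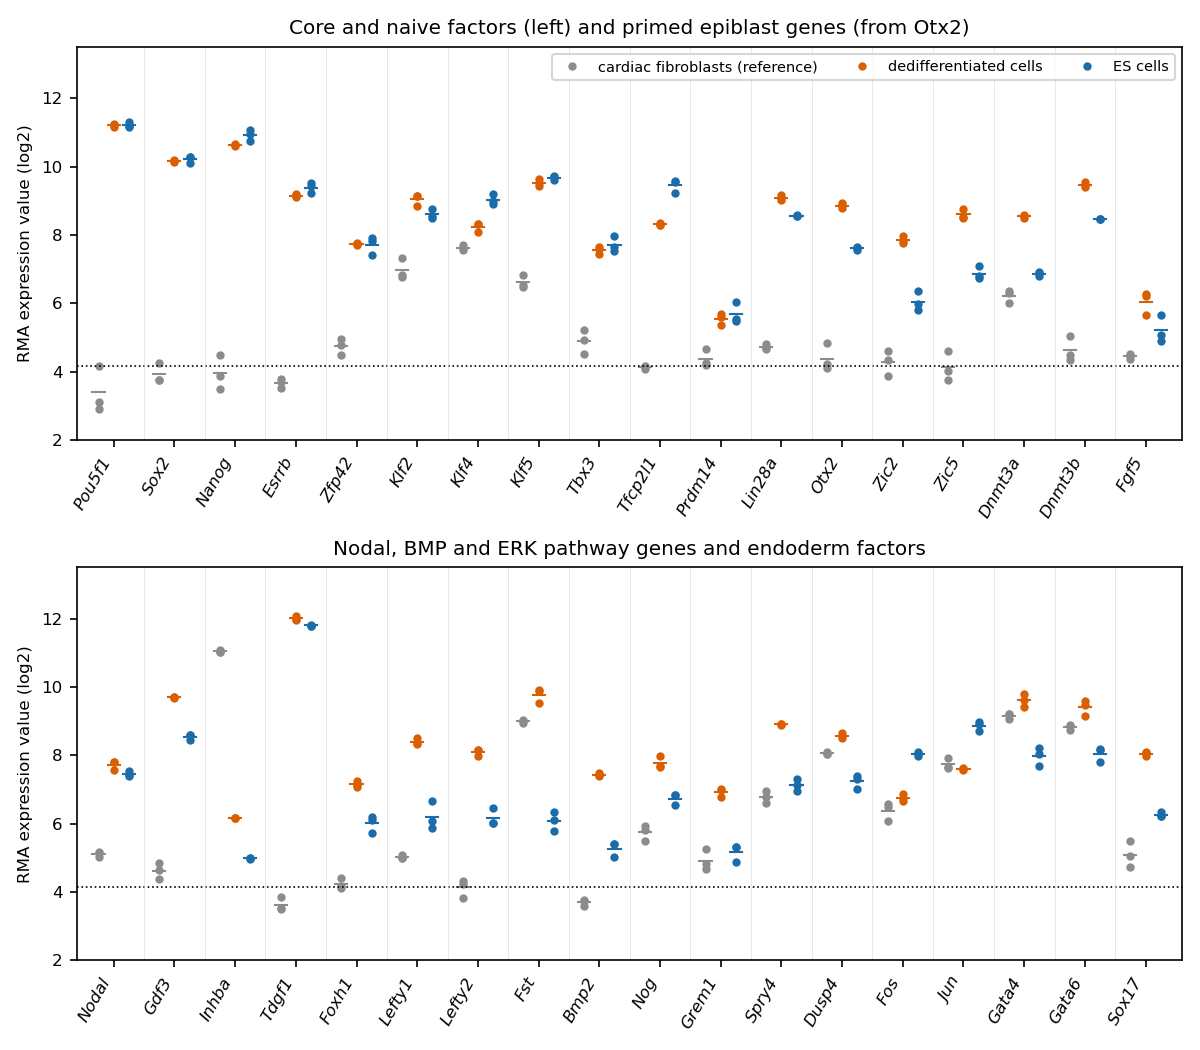
Log2 RMA value on each array for core and naive pluripotency factors and primed epiblast genes (top), and for Nodal, BMP and ERK pathway genes and endoderm factors (bottom). Points are single arrays (3 per group) and short lines are group means. The dotted line is the mean of the dim references of fibroblasts (4.16), dedifferentiated cells (4.17) and ES cells (4.14). Orange and blue points overlap for Pou5f1 and Sox2, while Zic2, Zic5, Lefty1, Lefty2, Bmp2 and Sox17 show separate groups.

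Gata4, Gata6 and Sox17, transcription factors of endoderm, were higher in dedifferentiated cells. They were the only calls among the 19 measured genes of the mesoderm and endoderm list (15.8%, against 1.55% of all genes tested). The list median was 0.06, with 12 members above 0. Gata4 read 9.41, 9.62 and 9.80 against 7.70, 8.03 and 8.20 in ES cells, a difference of 1.63 (1.34 to 1.92, adjusted p = 1.6e-05). Gata6 read 9.16, 9.46 and 9.59 against 7.79, 8.16 and 8.18, a difference of 1.36. Sox17, which specifies both primitive and definitive endoderm, read 7.97, 8.06 and 8.10 against 6.22, 6.22 and 6.33, a difference of 1.79. None of these arrays overlapped between the groups. Fibroblasts had 9.16 for Gata4 and 8.83 for Gata6, close to the dedifferentiated level, but 5.10 for Sox17.

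Of 21 measured primitive endoderm genes 7 were higher and 0 lower, the highest share of any list, and the list median of 0.57 was the highest of the 39 lists. Besides those 3 factors, which both lists hold, these were Foxq1 (1.53), Sox7 (1.40), the receptor Pdgfra (1.37) and Plat, tissue plasminogen activator (1.35). The fibroblast means were 5.35 for Foxq1, 5.67 for Sox7, 10.80 for Pdgfra and 8.73 for Plat. In dedifferentiated cells Pdgfra lay at 8.96 and Plat at 7.60, both below fibroblasts. Pdgfra is also on the fibroblast identity list. The basement membrane gene Lama1 at 0.83 and the sorting gene Dab2 at 0.77 were not called. The secreted proteins of visceral endoderm were not called, with Afp at -0.09, Ttr at 0.34 and Apoa1 at -0.11. At an unadjusted p under 0.05 with no limit on size 16 of the 21 were higher and 0 lower (15.8% and 14.7% of all genes). Foxq1 read 6.44 on all 3 ES arrays.

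The neural, trophoblast and germ cell lists held 2, 1 and 1 calls. These were 10.5%, 5.88% and 4.55% of their members, against 1.55% of all genes tested. Of 19 neural genes Nes and Tubb3 were higher. Nes, the filament nestin of neural and other progenitors, read 7.29, 7.10 and 7.13 against 5.37, 4.69 and 5.29 in ES cells, a difference of 2.05 (1.72 to 2.39). Tubb3, a neuronal tubulin, differed by 1.18. The fibroblast means were 6.01 for Nes and 9.11 for Tubb3. Among 17 trophoblast genes Rhox9 was higher by 1.08. Among 22 germ cell genes Zscan10 was higher by 1.21, from 7.23 on all 3 ES arrays. Of 26 Hox genes 0 were called in either direction by limma, and 0 reached an unadjusted p of 0.05 either way.

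Myc was the one member of its network that was called. Its arrays read 7.97, 7.95 and 7.99 in dedifferentiated cells and 5.53, 5.86 and 5.58 in ES cells, a 4.97-fold difference, with fibroblasts at 8.81. The relative Mycn differed by 0.62 (0.41 to 0.84, adjusted p = 0.00086) and Mycl by -0.01. Of 24 genes of growth and ribosome production commonly listed as Myc targets, Ccnd2 (1.22) was higher and Tert (-1.14) lower, and the median was 0.28 with 21 members above 0. With no limit on size, 16 of the 24 were higher and 1 lower at an unadjusted p under 0.05 (15.8% and 14.7% of all genes). Ccnd1, the related D cyclin, was higher by 1.41, and Pim2, a survival kinase, by 1.76. Both were picked after seeing these values.

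Tert, the catalytic subunit of telomerase, read 5.51, 5.30 and 5.51 in dedifferentiated cells against 6.28, 6.64 and 6.84 in ES cells (difference -1.14, -1.44 to -0.84). The arrays did not overlap. It was the single call among 13 measured telomere genes (7.69%, against 1.55% of all genes tested).

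The mitosis and DNA replication lists held 0 calls and the p53 targets held 2. Of 21 mitosis genes 0 were called by limma in either direction and 2 had a difference above 0. Their median was -0.28, and with no limit on size 0 were higher and 14 lower at an unadjusted p under 0.05 (15.8% and 14.7% of all genes). Cenpf, a kinetochore protein, was nearest to the rule at -0.95, and passed it without ES replicate 1 (-1.04). Of 23 DNA replication genes 0 were called, with a median of 0.12 and 10 higher and 1 lower at that unadjusted p. The 20 measured p53 targets with cell cycle inhibitors had 2 lower calls, Perp (-1.29), a desmosome and death gene, and Gadd45b (-1.06), a stress sensor. Of the 20, 1 had a difference above 0, and the median was -0.31.

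Genes of fibroblasts and matrix were read with the fibroblast level beside them. The fibroblast identity list, 26 measured genes, had 6 higher and 0 lower calls in dedifferentiated cells (median 0.37, 23 members above 0). Vim, vimentin, read 10.91, 10.91 and 10.95 against 9.11, 9.51 and 9.64 in ES cells, with fibroblasts at 12.94. Cd44, the hyaluronan receptor, read 5.97, 6.02 and 6.02 against 4.85, 4.66 and 4.68, with fibroblasts at 9.02. Nt5e (1.16), Runx1 (1.08) and Snai1 (1.03) were the other calls with Pdgfra. Snai1, which represses E-cadherin, was below the required size without ES replicate 1 (0.98). Of the 26 members 17 were higher and 1 lower at an unadjusted p under 0.05 with no limit on size (15.8% and 14.7% of all genes).

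Col1a1 and Col3a1, fibrillar collagens of fibroblasts, were not called. Col1a1 read 7.12, 7.21 and 7.07 in dedifferentiated cells and 7.14, 6.57 and 6.77 in ES cells, which overlapped, against 12.61 in fibroblasts. Of 40 matrix genes 5 were higher and 0 lower (12.5%, against 1.55% of all genes tested), with a median of 0.44. Tnc was far ahead of Lox (1.29), Plau (1.24), Dcn (1.2) and Timp3 (1.19). Lox, which crosslinks collagen, read 5.0, 5.0 and 4.94 against 3.62, 3.53 and 3.90, so that ES cells were not above the dim reference, and fibroblasts read 11.79. Timp3 was below the required size without ES replicate 1 (0.94), as its ES arrays read 6.63, 7.44 and 7.33. Fibronectin, Fn1, differed by -0.58.

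A narrower set of 13 fibroblast markers, for cardiac or feeder fibroblasts, was counted as a check on other cells in the samples. Of these 0 were called by limma, and 8 were higher and 1 lower at an unadjusted p under 0.05 (15.8% and 14.7% of all genes). Their mean level ranged from 4.99 to 5.11 on the dedifferentiated arrays, 4.64 to 4.85 on the ES arrays and 9.77 to 9.81 in fibroblasts, with a median difference of 0.31. Above the dim reference were 9 of the 13 in dedifferentiated cells, 8 in ES cells and 12 in fibroblasts. Fap, Tcf21, Dpt and Postn were not above it in dedifferentiated cells. The part of these markers in the differences of the fibroblast, matrix and endoderm genes was not tested.

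Of 8 endothelial markers 2 were higher and 0 lower, where 1.55% of all genes tested were called. Cdh5, VE-cadherin, read 5.64, 5.82 and 5.85 in dedifferentiated cells against 4.31, 4.43 and 4.42 in ES cells (difference 1.38), with fibroblasts at 4.61. Esam differed by 1.07 and by 0.98 without dedifferentiated replicate 3. Not called were Tek (0.94), Kdr (0.71), Emcn (0.14), Tie1 (-0.04), Vwf (-0.04) and Pecam1 (-0.05). The summed set lay at a mean of 5.46 to 5.58 against 4.97 to 5.02, and Emcn alone was not above the dim reference in dedifferentiated cells. Outside the lists, and picked after seeing the values, F3, tissue factor, was higher by 1.86, the hypoxia factor Epas1 by 1.71, the protein C receptor Procr by 1.29 and the progenitor antigen Cd34 by 1.26. Fibroblast means were 10.45 for F3, 8.16 for Epas1, 7.08 for Procr and 6.21 for Cd34. The part of endothelial markers in the differences of these genes was not tested. Of 10 macrophage markers 0 were called, and 7, among them Ptprc and Itgam, were not above the dim reference in dedifferentiated cells. Of 9 cardiomyocyte markers 0 were called, with Myh6, Myl2 and Ttn not above it. At an unadjusted p under 0.05 limma gave 0 higher and 1 lower in each of these 2 sets.

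Muscle-type and epithelial genes split. Of 26 genes of the myofibroblast and cytoskeleton list Cnn1, calponin (1.53), and Myl9, a myosin light chain (1.46), were higher and Acta1, skeletal actin (-1.15), was lower. Acta1 was at -0.996 without ES replicate 3 and then just missed the size. Of 21 epithelial genes 2 were lower and 0 higher (9.52%, against 1.55% of all genes tested), with a median of -0.21. The 2 lower genes were Perp and Cldn3, a claudin of tight junctions. Cldn3 at -1.03 missed the required size without dedifferentiated replicate 3 (-0.96), ES replicate 1 (-0.95) or ES replicate 3 (-0.96). E-cadherin (Cdh1) and Epcam differed by 0.17 and -0.18.

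In the stress, metabolic and immune lists, calls made up 4.0% of glycolysis and hypoxia, 8.7% of amino acid stress and 9.52% of interferon response genes. Of all genes tested 1.55% were called, and 0 of the sterol synthesis, antigen presentation and cytokine genes. Egln3, an oxygen-sensing hydroxylase, was higher by 1.04 among 25 glycolysis and hypoxia genes, but not without dedifferentiated replicate 3 (0.99). Among 23 genes of amino acid supply and stress, Ddit4, an inhibitor of mTORC1, was lower (-1.11) and Slc7a3, a cationic amino acid transporter, higher (1.18). Hmox1 (1.27), Gclm (1.17) and Srxn1 (1.14), genes of haem breakdown, glutathione synthesis and peroxiredoxin repair, were also higher, and were picked after seeing these values. Among 21 interferon response genes Stat2, a transducer of interferon signals, was lower and Irf1 was higher by 1.01. Irf1 dropped under the required size without dedifferentiated replicate 1 (0.95) or 2 (0.996), without ES replicate 2 (0.98) or 3 (0.94), and with its rows averaged (0.61). Irgm1, an interferon-induced GTPase on no list, read 6.15, 6.13 and 6.11 against 4.18, 4.22 and 4.02 in ES cells, a difference of 1.99 from an ES level not above the dim reference, with fibroblasts at 10.52.

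Among 27 imprinted genes 3 were higher and 0 lower (11.1%, against 1.55% of all genes tested), with a median of -0.01. Dlk1, a Notch-like growth regulator expressed from the paternal copy, read 7.53, 7.93 and 8.06 in dedifferentiated cells against 6.58, 6.63 and 6.62 in ES cells (difference 1.23). Meg3, the maternal noncoding RNA of the same locus, differed by -0.07. Phlda2 was higher by 1.28, from 8.16 on all 3 ES arrays. Dcn was the third. On the Y chromosome, 2 of 9 measured genes, counted after the values were seen, were higher, Srsy (1.28) and Zfy1 (1.23), and 0 lower. The called share was 22.2%, against 1.55% of all genes tested. The ES level of Zfy1 was not above the dim reference. Xist differed by 0.10, with overlapping arrays, at 3.25 in dedifferentiated and 3.15 in ES cells against 7.31 in fibroblasts. The Y-linked Eif2s3y read 8.09 and 7.76, against 3.55 in fibroblasts, and Uty 6.36 and 5.63, against 3.73. Fibroblasts had 3.73 for Srsy and 2.82 for Zfy1, and none of these 4 genes was above the dim reference there. The sex of the cells was not tested.

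**Figure D4:**
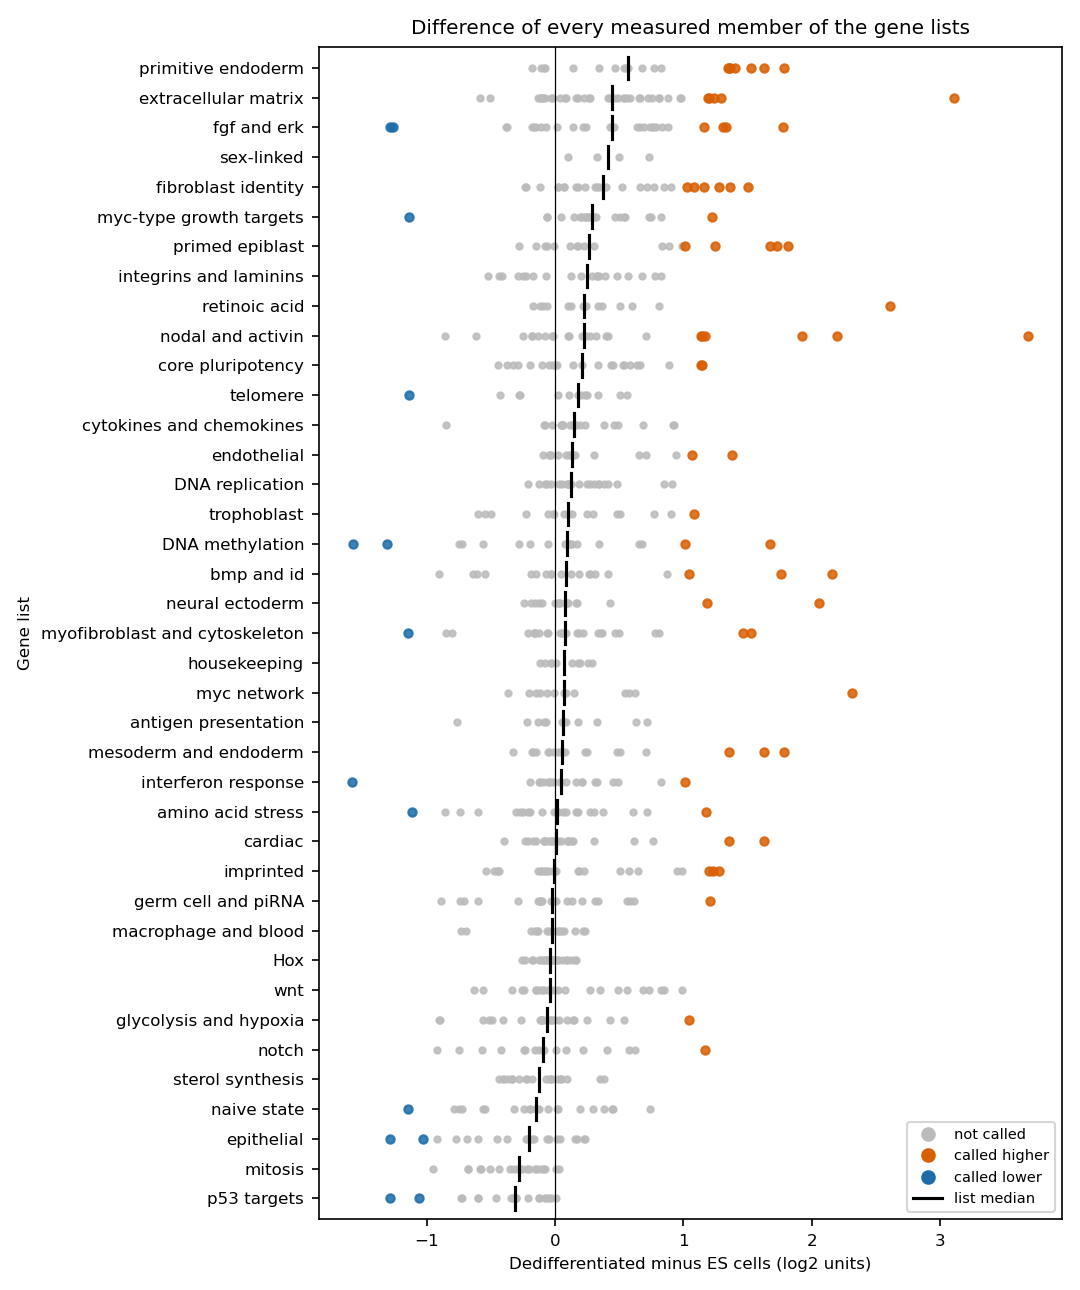
Difference between dedifferentiated and ES cells (log2 units) for every measured member of the 39 gene lists, sorted by the list median, which is drawn as a black bar. Each point is 1 gene, grey when not called, orange when called higher and blue when called lower. Primitive endoderm genes have the highest median (0.57) and p53 targets the lowest (-0.31).

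Fewer genes were lower in dedifferentiated cells, and few by a large amount. Septin4, a GTP-binding filament protein with a known part in cell death, read 5.36, 5.68 and 5.32 against 7.87, 8.13 and 8.0 in ES cells, a difference of -2.55 (-2.80 to -2.30, adjusted p = 3.7e-07). The fibroblast level was 5.24, near that of the dedifferentiated cells. Scel, sciellin, a protein of the cornified envelope, read 3.42, 3.91 and 3.63 against 5.43, 5.57 and 5.66, where the dedifferentiated level was not above the dim reference and fibroblasts read 10.06. G530011O06Rik, an X-linked gene known by a clone name and named after its value was seen, had the largest fall. It read 6.12, 5.57 and 6.19 against 10.09, 10.09 and 10.21, a difference of -4.17 (18.0-fold).

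Other falls covered metabolism, metal uptake and signalling. Azin2, an antizyme inhibitor that spares polyamine synthesis, read 5.97, 6.02 and 6.04 against 7.55, 7.83 and 8.01 (difference -1.79). Got1l1, a relative of aspartate aminotransferase, read 6.44, 6.37 and 6.42 against 7.83, 8.34 and 8.23 (-1.72). Stat2 read 5.26, 5.52 and 5.20 against 6.90, 6.91 and 6.90 (-1.58). All 3 dedifferentiated arrays of each lay below all 3 ES arrays, which the choice of the largest falls required. Slc31a1, the main copper importer, differed by -1.56, Lipg, a lipase of lipoproteins, by -1.48, Txnip, an inhibitor of thioredoxin, by -1.44 and Clk3, a splicing kinase, by -1.41. Gabbr1, a subunit of the GABA-B receptor, differed by -1.47 and Stil, a centriole duplication protein, by -1.51. Egfr, the EGF receptor, was lower too (-1.10), from 9.13 in fibroblasts and 6.87 in ES cells.

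Lower genes were unevenly placed in the genome. Chromosome 4 held 5.79% of the genes tested and 30 of the 109 lower genes (27.5%). Of its 1154 genes 2.6% were lower, against 0.422% of 18700 genes on other chromosomes, while 7 were higher. Azin2, Slc31a1 and Stil lie on it, as do Gne, the first enzyme of sialic acid synthesis (-1.22), Cpt2, of mitochondrial fatty acid import (-1.17), and Pgm1, phosphoglucomutase (-1.12). Jun (-1.26) also lies on it, as does Klf4 (-0.79), which was not called. Without ES replicate 1 the lower genes on chromosome 4 numbered 41 (3.55% against 0.599% elsewhere) and without ES replicate 3 they numbered 23 (1.99% against 0.316%).

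In blocks of 40 neighbouring genes above the dim reference, ordered by the RefSeq table, the lowest medians of chromosome 4 lay in a run from Mob3b to Bmp8b, which was delimited by these same medians. Its 10 blocks, 400 genes in all, had medians between -0.46 and -0.19 and held 27 lower and 3 higher genes. The arrays of the 2 groups did not overlap in any of the 10, nor in 107 of the 318 blocks of other chromosomes (33.6%). The other blocks of chromosome 4 had medians from -0.12 to 0.11. Over the 318 blocks of other chromosomes the medians ran from -0.36 to 0.22, and the lowest was a block of the X chromosome, Cd99l2 to Mpp1. For chromosome 4 as a whole the median difference was -0.07, and the exact two-sided permutation test over the 6 arrays gave p = 0.1, the smallest that 3 against 3 allows. The same p was reached by 5 of the 20 chromosomes tested, chromosome 4 included.

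**Figure D5:**
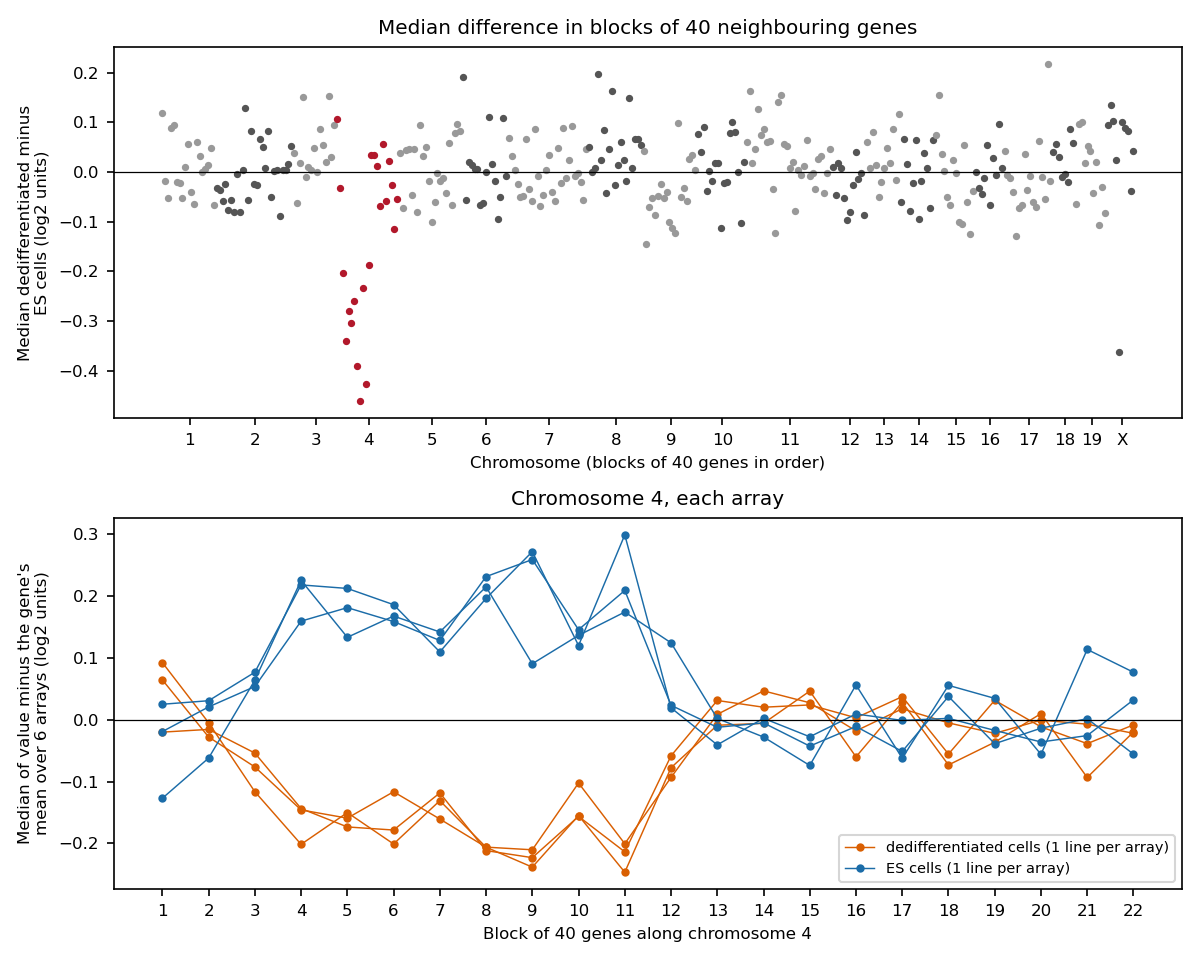
Top, median difference between dedifferentiated and ES cells (log2 units) in each of 340 blocks of 40 neighbouring genes, ordered along the chromosomes, with chromosome 4 in red. Bottom, the 22 blocks of chromosome 4 for each array, as the median of the gene values minus their mean over the 6 arrays (1 line per array, 3 arrays per group). In blocks 3 to 12 the 3 orange lines lie below the 3 blue lines.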

How the data were processed

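RNA of 9 samples (3 per group) was read on one-colour Affymetrix Mouse Gene 1.0 ST arrays. Per the submitters' processing notes, the deposited log2 values come from RMA, run in Affymetrix Expression Console 1.1. RMA background-corrects, quantile-normalizes and summarises probe sets, which hides a shift shared by all transcripts and compresses differences of dim genes. The table has 35557 rows. Groups follow the sample titles, although the source label of the fibroblasts also mentions ES cells.

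Rows were named through the platform annotation: 21789 had 1 symbol, 1621 several and 12147 none. For 999 genes with more than 1 row, the brightest row on average over the 9 arrays was kept. One limma fit (limma 3.58.1, R 4.3.3) of all 9 arrays with empirical Bayes moderation gave differences with 95% intervals and Benjamini-Hochberg adjusted p-values over all 19938 genes. It was tested on simulated data, in which 64 of 67 genes changed by 1.5 log2 units, 66 of 66 changed by 3, 0 of 67 changed by 0.5 and 0 of 19738 unchanged genes were called. The simulated noise was independent between genes and arrays, without shifts shared by an array or culture. The minimum of 1 log2 unit alone made calls at 0 or 0.5 unlikely. The simulation thus gives no error rate for the real arrays.

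The members and the 39 gene lists (805 places with a row) were chosen with earlier results of these data known. Named genes were the 15 largest rises and falls with non-overlapping arrays and full symbols, up to 3 called members per list and direction, taken by size (or the smallest p where a list had no call), and a fixed set of regulators. Genes named outside this rule were chosen after their values were seen. Alternatives covered normalization, filters, thresholds, array weights, the arrays fitted, a replicate block and leaving out each array.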

Additional observations from a re-analysis of the deposited data

Results flagged for a closer look

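Rows of the array that carry no single gene name take no part in the gene comparison, and some of them also differed between dedifferentiated and ES cells. With every row of the table in the fit, rows matching several gene symbols were called higher 72 times and lower 4 times (4.69% of 1621). Among rows without a symbol, 130 were called higher and 69 lower (1.64% of 12147), the same share as among rows with 1 symbol (1.64% of 21789). No gene is named from these rows.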

How the results depend on the processing

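No named called gene changed direction under any alternative run. With all rows of the table in the fit, 443 rows were higher and 190 lower. Other thresholds gave 2236 and 2003 genes with no minimum change, 765 and 660 at 1.5-fold, and 683 and 585 when tested against 1.2-fold (treat). Over the places on the gene lists, 230 and 101 passed with no minimum change and 140 and 54 at 1.5-fold. Leaving out 1 array gave 189 to 232 higher and 82 to 153 lower genes, and array weights gave 208 and 129. The imbalance was smallest without ES replicate 1 (189 higher and 153 lower) and largest without ES replicate 3 (232 and 82). ES replicate 1 had the lowest array weight (0.259). The median of chromosome 4 was -0.11 among genes above the dim reference. Of 132 named called genes 115 kept the call under every alternative and 17 lost it under at least one, while 5 of 62 uncalled genes passed under another setting than a lower minimum change. Genes whose difference lay near 0 changed sign. Mycl was at 0.035 after another quantile normalization, 0.0016 after median centring and 0.069 with array weights, and Pou5f1 was at 0.0091 after median centring. With array weights Zfp42 was at -0.082, Prdm14 at 0.021, Inhbb at -0.033 and Meg3 at 0.15. Leaving out 1 array gave -0.033 to 0.050 for Pou5f1, -0.35 to 0.036 for Dppa3, -0.071 to 0.069 for Mycl, -0.082 to 0.22 for Xist, -0.016 to 0.21 for Inhbb, -0.14 to 0.12 for Zfp42, -0.24 to 0.039 for Prdm14 and -0.23 to 0.088 for Meg3. For these the cause was not tested. Same-numbered arrays of both groups did not deviate together (correlations -0.126, -0.166 and 0.055). That gave no sign of pairing, but deviations over 3 arrays per group cannot exclude it. A replicate block gave 201 higher and 109 lower genes, with all 310 calls shared. The precision is limited by 3 arrays per group and by dim genes, since RMA compresses their differences.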
